A study of Mus musculus with 24 samples.

Results

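The comparison described here set the livers of 4 wild-type mice fed a diet with medium-chain triglycerides (MCT) against those of 4 wild-type mice fed the control diet, 8 of the 24 livers of the series, chosen by their labelled genotype and diet. All 8 mice were females of the B6129SF2/J strain, were 3 months old when feeding began and ate their diet for 6 months. Both diets gave 4.1 kcal/g, with carbohydrate at 70% and protein at 10%. All of the fat in the control diet was long-chain triglyceride (20%), whereas the MCT diet split it evenly into 10% long-chain and 10% medium-chain triglyceride; the labels do not say whether these percentages are by energy or by weight. Other contrasts are used beside it. One is the same pair of diets in 3xTg-AD mice (3xTg, 4 livers per diet), an Alzheimer's disease model that carries mutant human APP and tau transgenes directed to neurons and a mutant presenilin gene, so that liver is not the tissue the transgenes were built for. The other is a carbohydrate-free ketogenic diet (KD, 90% fat as long-chain triglyceride with 10% protein, 6.7 kcal/g) in 4 wild-type livers. The 3xTg and KD mice were likewise 3 months old when feeding began and ate their diet for 6 months. Each group holds 4 mice, so the spread between replicates is one between animals.

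Medium-chain fatty acids, here octanoic and decanoic acid, reach the liver through the portal vein, cross the mitochondrial membrane largely without the carnitine shuttle, are activated by acyl-CoA synthetases of the matrix and are shortened by medium-chain acyl-CoA dehydrogenase. Acetyl-CoA from this oxidation can be made into ketone bodies. The same acetyl-CoA unit is the building block of fatty acids and of cholesterol, whose synthesis genes are switched on by the sterol-sensing factor SREBP2 when membranes are short of sterol, while SREBP1c and carbohydrate-sensing factors drive fatty acid synthesis.

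Counts on genes ran from 12631371 to 16258432 over the 8 libraries, and 13281 genes passed the expression filter of the fit. Hepatocyte markers were as the label says: Alb, the albumin gene, lay between 98263 and 120205 CPM (counts scaled to a common library size) in all 8 livers. Some livers also held transcripts of other tissues. Summed exocrine pancreas markers reached 19727 CPM in MCT replicate 3 and at most 27.9 CPM in the other 7 livers. Skeletal muscle markers summed to 157 and 140.5 CPM in MCT replicates 3 and 4, to 27.7 in control replicate 2 and to at most 1.93 in the other 5. The adipocyte genes Adipoq and Plin1 summed to 1.82, 0, 5.97 and 4.77 CPM in MCT replicates 1 to 4 and to at most 0.153 CPM in the controls, where Plin1 was at 0 in every liver. The nucleus-retained RNA Xist stood at 404 and 825 CPM in control replicates 3 and 4 and at 429 in MCT replicate 1, against 139 to 176 in the other 5 livers. The means on MCT and the control diet were 74.6 and 8.05 CPM for the muscle markers and 3.14 and 0.0753 CPM for Adipoq and Plin1. Over 17 such library measures the lowest p was 0.143 (exact two-sided permutation test, adjusted p = 0.694). The smallest p that 4 against 4 livers allow is 0.0286, so no single measure could have passed after adjustment, and these tests do not show that the diets were alike.

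**Figure D1:**
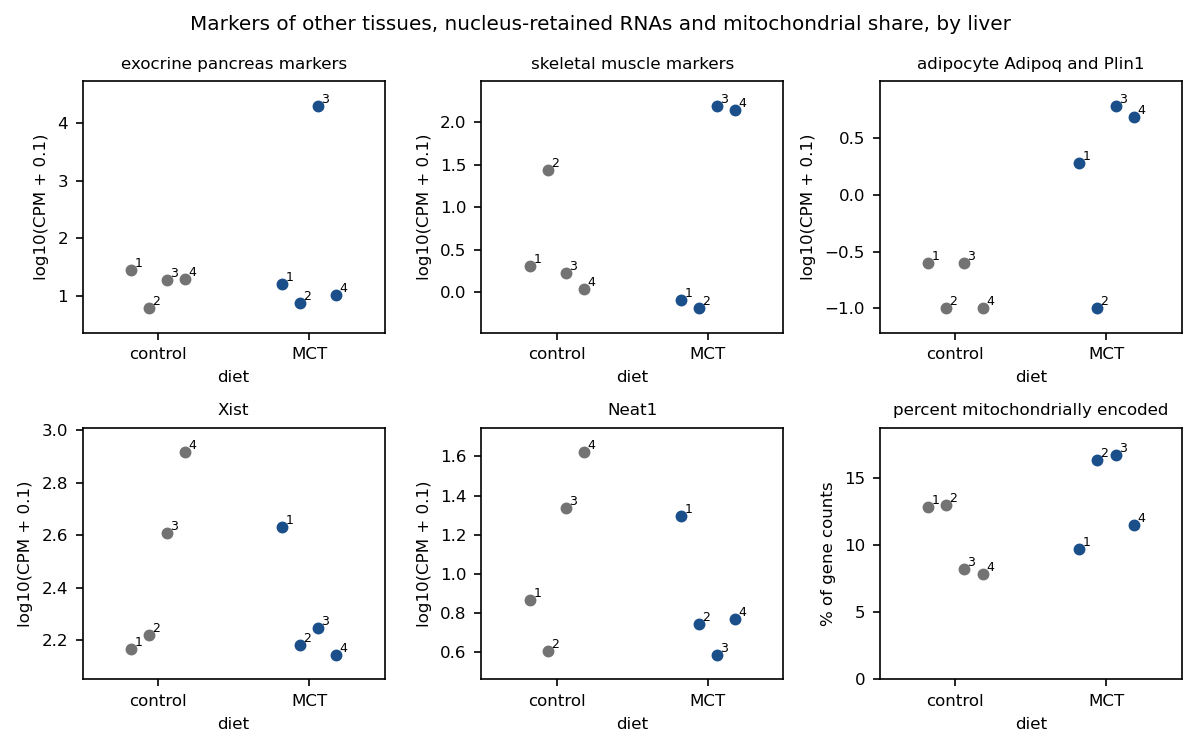
Library measures in each liver by diet, with the replicate number beside each point; 5 panels show log10(CPM + 0.1) on the vertical axis and the sixth the percentage of gene counts that are mitochondrially encoded. Pancreas markers stand apart in MCT replicate 3 (19727 CPM), muscle markers in MCT replicates 3 and 4, and Xist in control replicates 3 and 4 and MCT replicate 1.

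No gene passed the test between the diets. In edgeR's quasi-likelihood test with Benjamini-Hochberg adjustment, 0 of 13281 genes (0%) were called at an adjusted p under 0.05, and the smallest adjusted p was 0.496. At an unadjusted p under 0.05, 493 genes (3.71%) stood higher and 310 (2.33%) lower on MCT. All 4 MCT livers lay above all 4 control livers for 182 genes (1.37%) and below them for 172 (1.30%). Random ordering of 4 against 4 livers gives such separation, counting both directions together, at a rate of 0.0286 per gene. Lack of overlap alone therefore does not mark a gene as unusual here. The median half-width of a gene's 95% interval was 0.47 on the log2 scale, and 89.7% of genes had an interval narrower than 1 on each side. DESeq2 called 14 genes, all higher and all highest in MCT replicate 3. Of these, 11 are on the exocrine pancreas list, and Vim alone had MCT livers that all exceeded the controls. Leaving out MCT replicate 1 gave 1 call in edgeR, Inhbe. Between these diets no gene was called by edgeR with all livers, so the edgeR values below for MCT against the control diet are estimates that did not pass the test.

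The gene group that lay farthest from 0 among the metabolic lists was cholesterol synthesis and uptake. All 25 listed genes were tested, 23 had a log2 fold change below 0, and their median was -0.66, against 0.01 for all tested genes. At an unadjusted p under 0.05, 7 of the 25 stood lower (28.0%, against 2.33% of all tested genes) and none higher, and 2 had no overlap between the diets, Sqle and Mvd (8.00%, against 1.30%). No member was called. Ebp, at 0.09, and Tm7sf2, at 0.08, were the members above 0. When scaled by library size alone they were at -0.01 and -0.08, but that scaling also moved the median of all tested genes to -0.10. The list was drawn up with earlier results of these data known, so its counts describe these livers and are not independent evidence.

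The promoter of Hmgcs1 is shown because it alone among the 17 list genes with an entry in the RefSeq promoter table (GRCm38.p6) held the sterol regulatory element letters searched for, TCACNCCAC on either strand. These letters were in 1.24% of the table's 32851 promoters. The window lies on the + strand of GRCm38.p6 at chr13:119690101-119690400, and capitals mark the match, which begins 137 bases before the annotated start.
Hmgcs1: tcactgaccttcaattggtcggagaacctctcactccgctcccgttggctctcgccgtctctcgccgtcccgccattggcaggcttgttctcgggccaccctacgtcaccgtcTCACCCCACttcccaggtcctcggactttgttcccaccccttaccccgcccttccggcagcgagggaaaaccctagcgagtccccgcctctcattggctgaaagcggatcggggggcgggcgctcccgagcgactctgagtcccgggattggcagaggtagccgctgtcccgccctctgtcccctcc
CCAAT, a motif looked for after the values had been seen, was found on either strand in 16 of the 17 promoters, against 43.1% of the tested genes with a promoter in the table and 37.4% of all its promoters; the Hmgcs1 window holds 4 copies. Matching letters are a description of the window and not evidence of binding.

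Cholesterol synthesis begins with Hmgcs1, which makes HMG-CoA in the cytosol. Its level was 895, 248, 383 and 483 CPM in MCT replicates 1 to 4 and 656, 868, 765 and 1264 CPM in control replicates 1 to 4. MCT replicate 1 lay inside the control range and the other MCT livers below all controls, and the log2 fold change was -0.82 ± 0.41 (SE; 95% interval -1.67 to 0.03; adjusted p = 0.818). The mevalonate decarboxylase Mvd had no overlap, with 14.4, 13.2, 13.5 and 6.38 CPM on MCT against 23.0, 16, 34.3 and 33.1 CPM on the control diet (-1.16 ± 0.48; adjusted p = 0.785).

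Downstream of mevalonate, Fdps, which makes farnesyl diphosphate, stood at 10.7, 2.89, 2.67 and 4.39 CPM on MCT and at 8.67, 7.68, 10.3 and 19.2 CPM on the control diet, a log2 fold change of -1.16 ± 0.43. Sqle, which epoxidises squalene and controls flux into sterols, lay at chr15:59315077-59331192 (GRCm38). Its levels of 134, 42.5, 94.5 and 53.1 CPM on MCT were all below the 146, 147, 152 and 172 CPM of the controls. The group means were 80.9 ± 41.7 and 154 ± 12.2 CPM (SD, n = 4), and the log2 fold change of -0.93 ± 0.35 (adjusted p = 0.772) did not pass the test. Among the later enzymes, Msmo1 (-0.88), Hsd17b7 (-0.74) and Cyp51 (-0.72) had unadjusted p values of 0.0452, 0.0297 and 0.0496. Mylip, a ubiquitin ligase and a target of the oxysterol receptor LXR, stood higher in every MCT liver, at 12.7, 13.4, 15.1 and 19.3 CPM against 12.1, 11.1, 10.1 and 11.8 CPM (0.43 ± 0.16; adjusted p = 0.741). Srebf2, which encodes SREBP2, was at -0.33 ± 0.20.

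**Figure D2:**
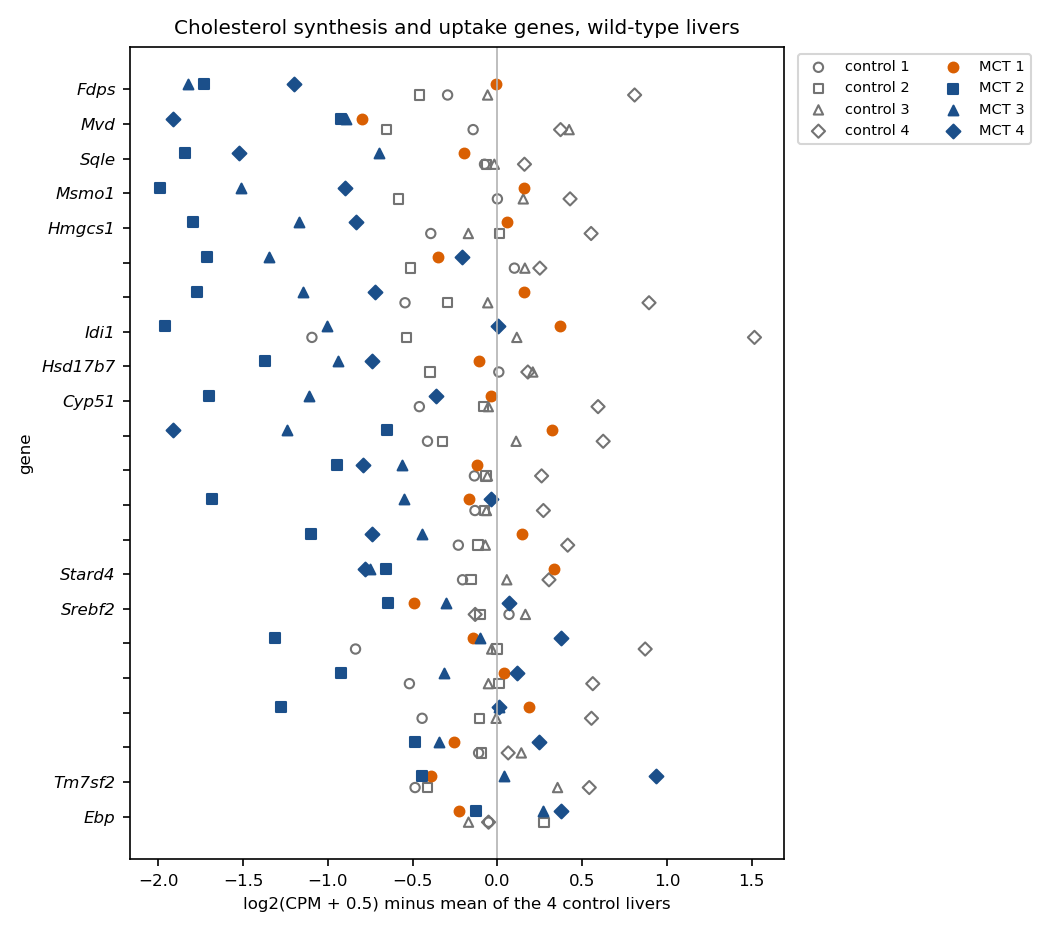
Level of 22 of the 25 cholesterol genes in each wild-type liver, as log2(CPM + 0.5) minus the mean of the 4 control livers (horizontal axis), with genes ordered by their fold change and names given for those described in the text; open grey symbols are control livers, blue symbols MCT replicates 2 to 4 and orange circles MCT replicate 1. The blue symbols lie left of the controls for most genes, and MCT replicate 1 mostly lies among the controls, unlike replicates 2 to 4.

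The MCT livers were not alike in these genes. The median member stood at -0.05, -1.10, -0.75 and -0.72 log2 units from the control mean in MCT replicates 1 to 4, and at -0.20, -0.11, 0.06 and 0.41 in control replicates 1 to 4. Of the 25 genes, 23, 19 and 14 were below every control liver in MCT replicates 2, 3 and 4, but only 6 were in MCT replicate 1. Without MCT replicate 1 the remaining 3 MCT livers lay below all controls for 14 genes (56.0%, against 5.16% of all tested genes). The number lower at an unadjusted p under 0.05 went from 7 to 16 of 25 (28.0% to 64.0%). The share of all tested genes lower at that threshold rose too, from 2.33% to 5.26%. The list median was -0.79, again with no member called. Without control replicate 4, the highest control, the median was -0.41. There 1 member was lower at an unadjusted p under 0.05 (4.00%, against 2.01% of all tested genes). The livers with high Xist and Neat1, control replicates 3 and 4 and MCT replicate 1, were also the highest of their diets for the list, with summed levels of 6267, 8259 and 5995 CPM. The remaining controls summed to 4464 and 4499 CPM and the remaining MCT livers to 2474, 2944 and 3577 CPM. This division of the livers by Xist was made after the values had been seen and leaves few livers, so it is not a test between the diets. With control replicates 3 and 4 left out the median was -0.31 and no member had an unadjusted p under 0.05. With MCT replicate 1 left out as well the median was -0.57, and 7 members were lower at that threshold (28.0%, against 3.07% of all tested genes). Malat1, also nucleus-retained, did not follow the division by Xist, at 216 CPM in control replicate 3 and 358 CPM in control replicate 1. It was high in MCT replicate 1 (536 CPM) and control replicate 4 (348 CPM). The mitochondrially encoded share was 9.66%, 8.23% and 7.84% in MCT replicate 1 and control replicates 3 and 4, and 11.5% to 16.7% elsewhere. The part that Xist and Neat1 levels or the mitochondrial share of a library have in the result was not tested.

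Genes that handle the added fat did not stand apart. Of 19 listed genes for activation and oxidation of medium-chain fatty acids, 17 were tested, 6 lay above 0 and 11 below, and none had an unadjusted p under 0.05 or groups without overlap. Their median was -0.04 and their log2 fold changes ran from -0.20 to 0.58, with a median 95% half-width of 0.36. Acadm, the medium-chain dehydrogenase, was at 526, 532, 349.8 and 547 CPM on MCT and at 477, 520.3, 536 and 559 CPM on the control diet. Only MCT replicate 3 lay outside the control range, and the log2 fold change was -0.10 with a 95% interval of -0.46 to 0.26. Acsm1, a matrix synthetase for medium-chain acids, was at 230, 213, 259 and 251 CPM against 229, 279, 211 and 245 CPM, a log2 fold change of -0.02 (-0.29 to 0.25). Acsm3 was at -0.07 (-0.48 to 0.34), and the carnitine acetyltransferase Crat was at 0.45 (-0.08 to 0.98), with 129 and 151 CPM in MCT replicates 3 and 4 against 63.3 to 84.7 in the controls.

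Long-chain oxidation and the carnitine shuttle had a median of 0.06 (15 genes tested, 10 above 0, none at an unadjusted p under 0.05). Its entry enzyme Cpt1a was at 0.28 (-0.19 to 0.75). Ketone body genes had a median of -0.05 over 9 genes. Of these, 3 lay above 0 and 6 below, and 1 was lower at an unadjusted p under 0.05 (11.1%, against 2.33% of all tested genes). In each direction 1 gene had no overlap (11.1% each, against 1.37% higher and 1.30% lower of all tested genes).

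Ppara encodes the nuclear receptor that senses fatty acids in liver. It stood at 163, 189.9, 214 and 229 CPM on MCT and at 146, 162, 142 and 154 CPM on the control diet, higher in every MCT liver, with a log2 fold change of 0.40 ± 0.12 (adjusted p = 0.609). Its listed targets of peroxisomal and microsomal oxidation had a median of -0.04, with 11 of 25 above 0 and none at an unadjusted p under 0.05. Fgf21, a hormone that the receptor induces in fasting, lay lower in every MCT liver, at 3.55, 1.48, 1.96 and 2.95 CPM against 3.75, 3.71, 3.79 and 6.49 CPM (-0.84 ± 0.35; adjusted p = 0.785). So the receptor and this target had estimates of opposite sign, and neither passed the test.

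Fatty acid synthesis and desaturation had a median of -0.05 over 27 genes, 12 of them above 0. Scd1, the main liver desaturase, was at 7182, 5364, 21507 and 4661 CPM on MCT and 2107, 6771, 4798 and 5707 CPM on the control diet. MCT replicate 3 and, by less, replicate 1 exceeded all controls, and the log2 fold change of 1.0 ± 0.51 was 0.24 without it. Fasn, the fatty acid synthase, was at -0.61 (-1.38 to 0.17), Acaca at 0.10 (-0.41 to 0.61) and Elovl6 at 0.06 (-1.03 to 1.15). At an unadjusted p under 0.05, 2 of the 27 genes were lower (7.41%, against 2.33% of all tested genes) and 0 higher. Lower estimates at that threshold belonged to Gpam, the first acyltransferase of triglyceride synthesis (-0.74 ± 0.34), and Srebf1, which encodes SREBP1 (-0.72 ± 0.34). Without control replicate 3, 0 members were lower at it (against 1.87% of all tested genes). With all livers, 1 member was higher without overlap (3.70%, against 1.37% of all tested genes).

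Lipid droplet genes separated the MCT livers from each other. Plin2, which coats droplets, was at 192, 202, 502 and 602 CPM on MCT and at 191, 205, 205 and 286 CPM on the control diet. G0s2, an inhibitor of the triglyceride lipase, was at 32.6, 38.5, 172 and 167 CPM against 19.3, 29.0, 57.7 and 66.8 CPM. Cidec, a droplet fusion protein of adipocytes and fatty liver, was at 0.604, 0.963, 6.17 and 4.53 CPM against 0.859, 0.338, 1.10 and 0.437 CPM. MCT replicates 3 and 4 were high for all of these and replicates 1 and 2 lay within or near the control range. The log2 fold changes were 0.76 ± 0.29, 1.24 ± 0.50 and 2.15 ± 0.88 (adjusted p = 0.776, 0.785 and 0.785). With Fitm2 they made 4 of 23 list members at an unadjusted p under 0.05 (17.4%, against 3.71% of all tested genes), and the list's median was 0.02. With MCT replicates 3 and 4 left out Plin2 was at -0.17 and G0s2 at -0.28. These are also the livers with the most Adipoq, Plin1 and muscle transcripts; the part of adherent tissue was not tested.

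The list of insulin, IGF and growth hormone signalling had a median of 0.01, with 11 of 22 genes above 0 and 11 below. It held 1 gene without overlap in each direction (4.55% each, against 1.37% higher and 1.30% lower of all tested genes), Lepr higher and Irs2 lower. Irs2, the insulin receptor substrate that insulin itself represses in liver, was at 22.8, 17.0, 6.66 and 12.3 CPM on MCT and at 32.2, 38.3, 43.2 and 25.0 CPM on the control diet (-1.24 ± 0.42; adjusted p = 0.719). G6pc, the glucose-6-phosphatase that releases glucose from liver, was at 221, 263, 102 and 139.6 CPM against 291, 285, 384 and 335 CPM (-0.84 ± 0.35; adjusted p = 0.785). Both were lower in every MCT liver than in every control liver. Igfbp1, another insulin-repressed gene, overlapped, with 139, 40.8, 5.82 and 17.2 CPM against 67.9, 116, 118 and 212 CPM (-1.35 ± 0.71). Txnip, a glucose-induced inhibitor of thioredoxin, was at -0.69 ± 0.29. The mitochondrial PEP carboxykinase Pck2 stood higher without overlap (0.71 ± 0.21), at 3.41 to 5.33 CPM on MCT against 1.86 to 2.75 CPM. The gluconeogenesis list, to which G6pc and Pck2 belong, had a median of -0.03, with 10 of 22 members above 0. Its only genes without overlap were Pck2, higher, and G6pc, lower (4.55% each, against 1.37% higher and 1.30% lower of all tested genes).

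**Figure D3:**
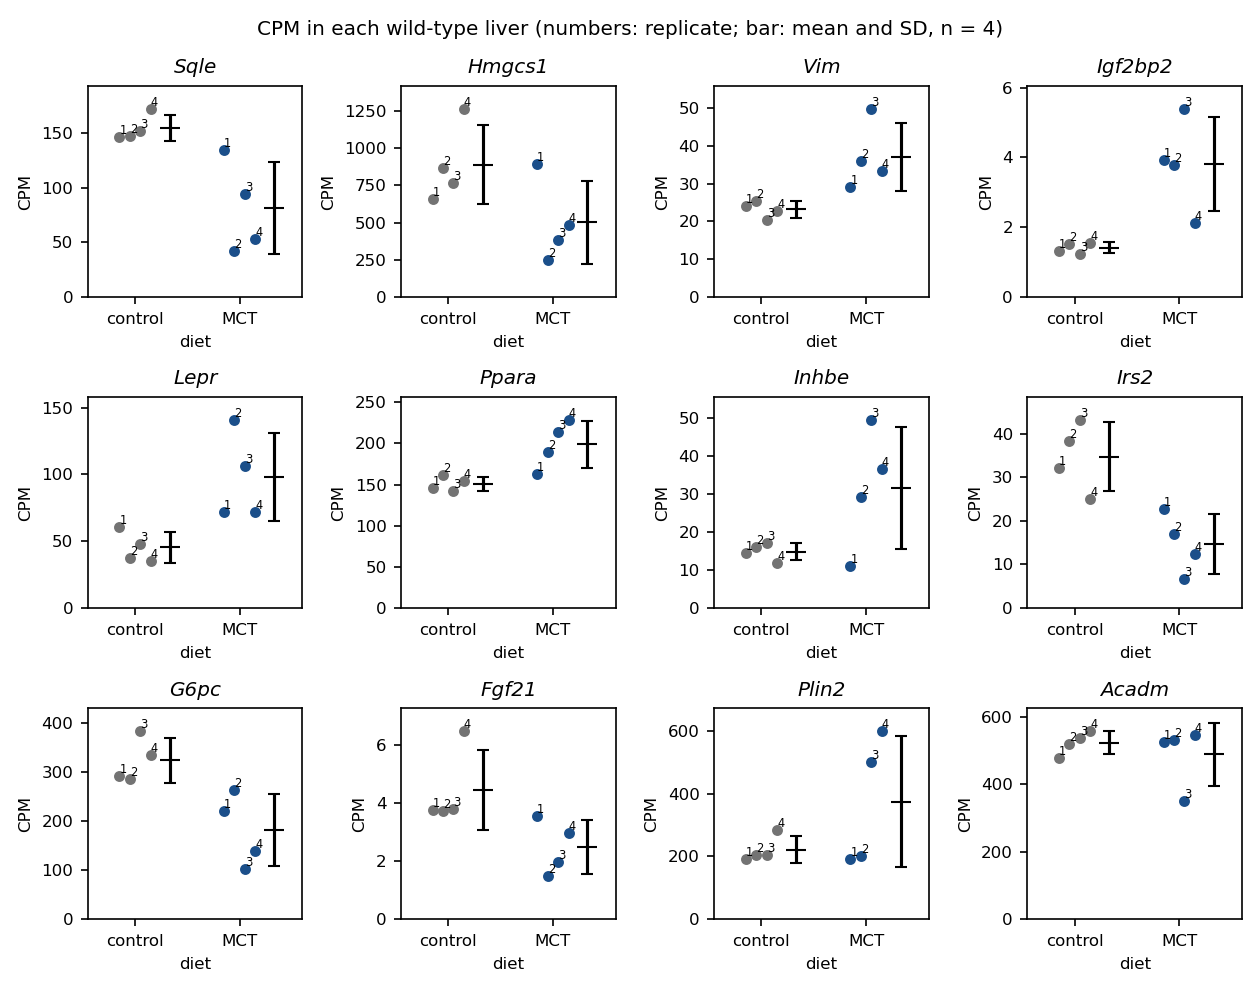
CPM of 12 genes in each wild-type liver by diet, each panel on its own axis from 0, with replicate numbers and the mean and SD of 4 livers. Sqle, Irs2, G6pc and Fgf21 are lower and Vim, Igf2bp2, Lepr and Ppara higher in every MCT liver than in every control liver, and Hmgcs1, Inhbe, Plin2 and Acadm overlap.

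By the smallest p among genes without overlap, the named genes higher on MCT were Vim, Igf2bp2, Ehd2, Nfe2l1, Art4, S100a11, Clip2, Lepr, Pck2 and Crim1. Vim, the intermediate filament of mesenchymal cells, was at 29.2, 35.9, 49.8 and 33.2 CPM on MCT and at 24.0, 25.5, 20.3 and 22.8 CPM on the control diet, with a log2 fold change of 0.68 ± 0.15 (edgeR adjusted p = 0.496; DESeq2 adjusted p = 0.0223). Igf2bp2, an RNA-binding protein that regulates metabolism, was at 3.93, 3.78, 5.40 and 2.13 CPM against 1.33, 1.52, 1.24 and 1.56 CPM (1.43 ± 0.34). Lepr, the leptin receptor gene, was at 71.9, 141, 106 and 72.2 CPM against 60.4, 37.7, 48.1 and 35.5 CPM (1.11 ± 0.32). Nfe2l1, a transcription factor that controls proteasome genes and cholesterol sensing, was at 0.48 ± 0.13. For each of the 4 genes the lowest MCT liver exceeded the highest control. Inhbe, a hepatokine subunit of activin E, overlapped: MCT replicate 1 was at 11.2 CPM and the others at 29.3, 49.6 and 36.7, against 11.8 to 17.0 CPM in the controls (1.10 ± 0.28; adjusted p = 0.544). Without MCT replicate 1 it was called, at 1.38 (edgeR adjusted p = 0.0211).

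The named genes lower on MCT were Zfp512b, Dynlt1b, Cox15, Fancb, Cwf19l1, Bbc3, Car2, Agk, Pmpca and Pole. Cox15, which makes haem a for cytochrome oxidase, was at 20.3, 16.5, 14.5 and 13.3 CPM on MCT and at 23.9, 22.2, 24.9 and 22.6 CPM on the control diet (-0.53 ± 0.14; adjusted p = 0.544). Pmpca, a subunit of the peptidase that trims imported mitochondrial proteins, was at -0.33 ± 0.10, and Agk, a mitochondrial acylglycerol kinase, at -0.67 ± 0.20. Bbc3, a p53 target that promotes cell death, was at 2.87, 0.963, 0.561 and 1.99 CPM against 2.97, 3.71, 5.24 and 6.49 CPM (-1.53 ± 0.44). The nuclear-encoded respiratory chain list, of which these are not members, had a median of 0.02 over 40 genes, with log2 fold changes from -0.14 to 0.27. Dynlt1b (-1.10 ± 0.28) has near-identical copies in the mouse genome, so its count is uncertain. Among DNA replication genes Pole was at -1.25 ± 0.38, and Mcm5 and Mcm2, parts of the replicative helicase, were at -1.23 ± 0.52 and -1.08 ± 0.48; the cell cycle list as a whole had a median of -0.12, with 11 of 27 members above 0.

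Most members of the lists of non-parenchymal and immune cells had estimates above 0. Stellate cell and fibrosis markers lay above 0 in 20 of 20 genes tested (median 0.24), endothelial markers in 17 of 18 (0.23), T and NK cell markers in 13 of 13 (0.46), B and plasma cell markers in 16 of 19 (0.40) and Kupffer cell markers in 16 of 21 (0.10). Of all tested genes, 493 (3.71%) stood higher at an unadjusted p under 0.05. For stellate and endothelial markers it was 4 genes each (20.0% and 22.2%), with 1 gene in each list without overlap (1.37% of all tested genes), Col3a1 (0.73 ± 0.26) and Emcn (0.56 ± 0.17). Without control replicate 4 it was 1 gene in each list (5.0% and 5.56%, against 3.37% of all tested genes). With MCT replicate 3 left out it was 1 stellate and 2 endothelial genes (5.0% and 11.1%, against 1.98% of all tested genes). The median stellate gene lay 0.14, 0.14, 0.32 and 0.41 log2 units above the control mean in MCT replicates 1 to 4, and the median endothelial gene 0.01, 0.18, 0.28 and 0.48. In control replicates 1 to 4 it lay at 0.22, 0.10, -0.00 and -0.36 for stellate and at 0.01, 0.06, 0.02 and -0.06 for endothelial markers. For stellate markers MCT replicates 1 and 2 thus lay within the control range. The highest, MCT replicates 3 and 4, are the livers with the most muscle and adipocyte transcripts, whose part in these estimates was not tested; without both, 15 of 20 stellate and 11 of 18 endothelial genes lay above 0. In bulk tissue more cells of a type and more RNA per cell cannot be told apart. Hepatocyte markers had a median of 0.12. The summed level of the stellate list was 798 ± 144 CPM on MCT and 748 ± 95 CPM on the control diet (SD, n = 4; exact permutation p = 0.6). The endothelial sum was 821 ± 65.2 against 770.4 ± 87.6 CPM, and the Kupffer cell sum was lower on MCT in the mean, at 860.0 ± 84.3 against 915 ± 199 CPM. Without MCT replicate 2, T and NK cell markers had a median of 0.11, and without control replicates 3 and 4 stellate markers lay above 0 in 15 of 20 genes.

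Interferon-stimulated genes lay above 0 in 30 of 38 (78.9%, against 51.4% of all tested genes), with a median of 0.29. At an unadjusted p under 0.05, 4 of them stood higher (10.5%, against 3.71% of all tested genes). Cxcl9, a chemokine induced by interferon gamma, was at 27.8, 80.2, 34.4 and 26.4 CPM on MCT and at 21.3, 17.6, 12.1 and 17.5 CPM on the control diet (1.30 ± 0.44; adjusted p = 0.719). Zbp1, a nucleic acid sensor, was at 4.83, 13.8, 11.4 and 5.63 CPM against 4.06, 3.29, 3.51 and 6.30 CPM (1.05 ± 0.43). MCT replicates 2 and 3 were the high ones, and without replicate 2 the list had 21 of 38 above 0 and a median of 0.02. There 1 member was higher at an unadjusted p under 0.05 (2.63%, against 3.61% of all tested genes). In 3xTg livers the same list had a median of -0.27.

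**Figure D4:**
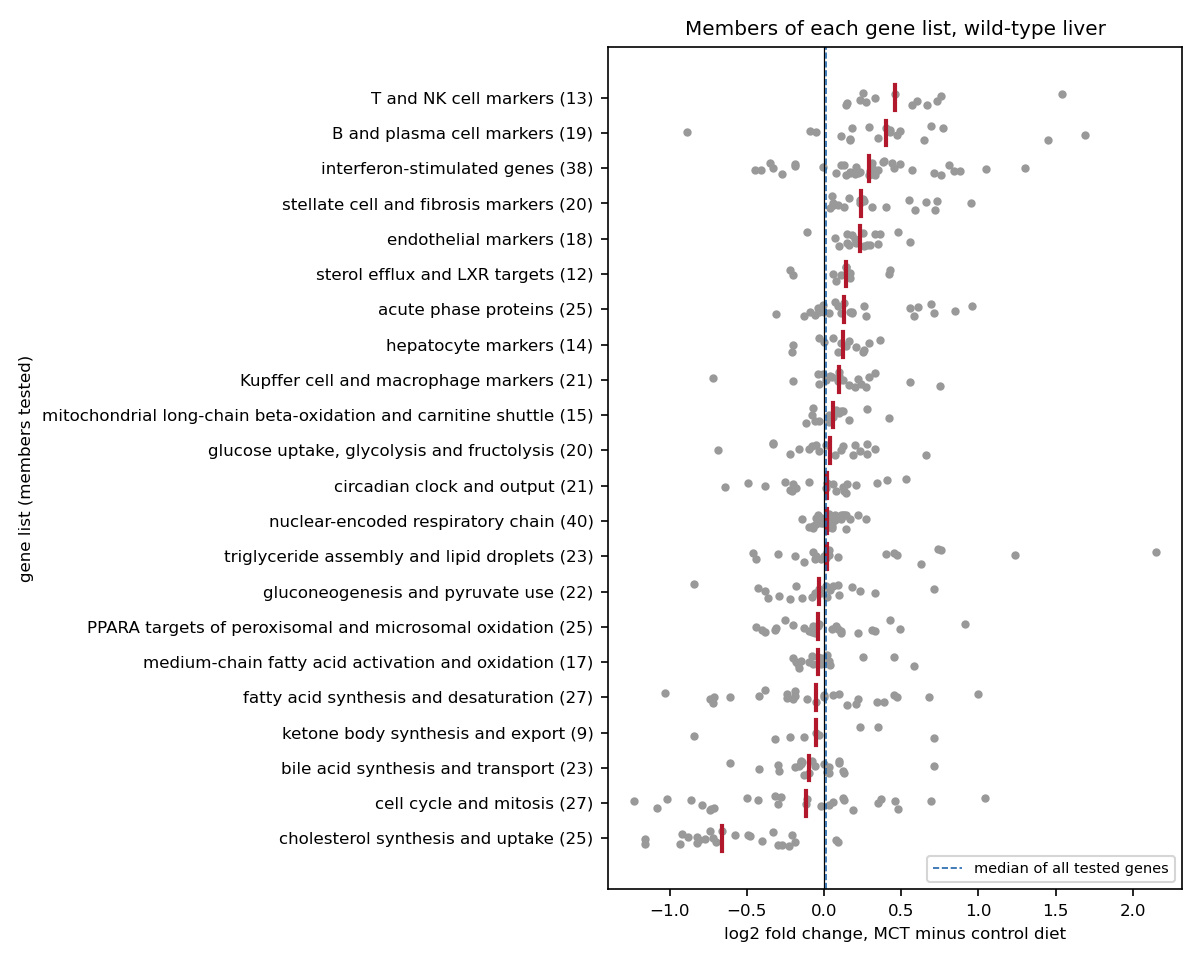
Log2 fold change on MCT minus control diet (horizontal axis) of every tested member of 22 gene lists in wild-type liver, with red bars at list medians and a dashed line at the median of all tested genes. The cholesterol list lies lowest, at -0.66, and lists of fat oxidation lie near 0.

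Whether wild-type and 3xTg livers answered differently was tested as the difference of their MCT responses. In edgeR's quasi-likelihood test 0 genes (0%) were called, and 287 (2.16%) had an unadjusted p under 0.05; DESeq2 called 0. The cholesterol genes leaned the same way in both genotypes, which share no libraries. The 3xTg median was -0.79 with 25 of 25 members below 0 and none called. The response of no member differed between genotypes at an unadjusted p under 0.05, which does not show that the responses were equal. As the list was drawn up with earlier results of these data known, the likeness is not independent evidence. Sqle was at -1.5 in 3xTg and -0.93 in wild type, and Mvd at -2.01 and -1.16. Fatty acid synthesis genes had a median of -0.63 in 3xTg and -0.05 in wild type. The wild-type median was -0.18 without MCT replicate 3, with 8 of 27 genes above 0. With all livers, the response of 10 of 27 differed between genotypes at an unadjusted p under 0.05. Elovl6, for example, was at -2.11 in 3xTg and 0.06 in wild type (difference 2.17 ± 0.75), and Fasn at -1.91 and -0.61 (1.31 ± 0.53).

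**Figure D5:**
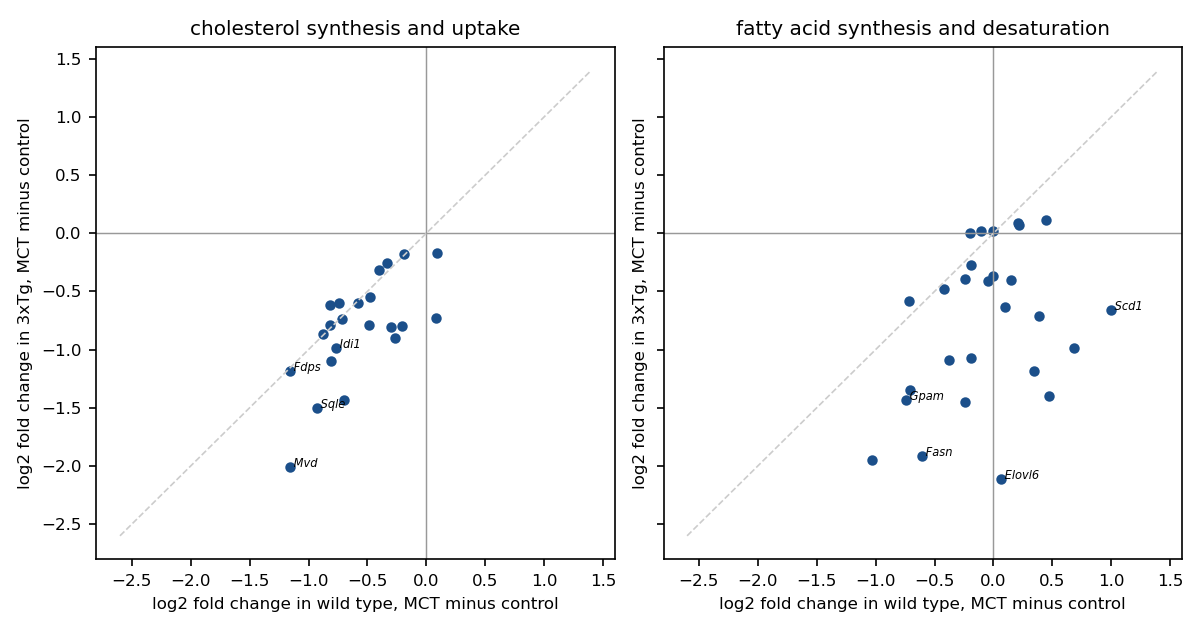
Log2 fold change on MCT minus control diet of each gene in wild-type liver (horizontal axis) and 3xTg liver (vertical axis), for 22 of the 25 cholesterol genes (left) and the fatty acid synthesis list (right), with names for some genes that the text describes; the dashed line marks equal values. The cholesterol genes lie below 0 on both axes but for Ebp and Tm7sf2, and the fatty acid synthesis genes mostly lie lower in 3xTg (median -0.63) than in wild type (-0.05).

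The 5 genes with the smallest p for the genotype difference were Tagap1, Serpina3c, Adh6-ps1, Irs2 and Pltp. Irs2 in 3xTg was at 30.9, 26.9, 42.6 and 46.7 CPM on MCT and at 24.8, 21.0, 5.94 and 8.34 CPM on the control diet. There the MCT livers all lay above the controls, and in wild type all lay below, with a difference of -2.53 ± 0.60 (unadjusted p = 0.000308, adjusted p = 1). Pltp, the phospholipid transfer protein, was at 24.8, 64.2, 95.1 and 61.9 CPM on MCT and 22, 31.3, 31.8 and 51.2 CPM on the control diet in wild type (0.85 ± 0.29), and at -0.82 ± 0.29 in 3xTg. G6pc was at -0.84 in wild type and 0.96 in 3xTg. No difference passed the adjusted threshold.

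Against KD, a contrast that uses the same MCT livers, 24 genes were called in edgeR at an adjusted p under 0.05, 12 higher and 12 lower on MCT (0.0904% each). Scd1 was higher on MCT at 9678 ± 7957 CPM against 715 ± 313 CPM (SD, n = 4), a log2 fold change of 3.76 ± 0.56 (edgeR adjusted p = 0.00298). Further called genes higher on MCT were Lepr (1.90 ± 0.33; 97.8 against 26.3 CPM), the pyruvate kinase Pklr (1.52 ± 0.27), Acaca, which makes malonyl-CoA (1.23 ± 0.25), Elovl6 (2.67 ± 0.56) and the calcium pump Atp2b2 (2.58 ± 0.39). Lower on MCT was Mogat1, an acyltransferase of triglyceride synthesis, at 1.21, 0.741, 0.912 and 1.30 CPM against 13.3, 12, 12.3 and 18.2 CPM on KD (-3.73 ± 0.34; edgeR adjusted p = 2.05e-06). Kbtbd11 (-3.00 ± 0.40) and Sema5b (-3.91 ± 0.57) were lower too. Fat oxidation genes had lower estimates on MCT than on KD. All 17 medium-chain genes tested were below 0 (median -0.29, none called), as were all 25 PPARA targets tested (median -0.49, 1 called). Acadm was at -0.63 ± 0.17 and Cpt1a at -0.47 ± 0.23. With single libraries left out the number of calls ran from 9 (without KD replicate 2) to 57 (without MCT replicate 3), with 15 without KD replicate 3 and 12 without MCT replicate 1. Acaca and Elovl6 kept their calls in 1 such omission, that of MCT replicate 4, and Pklr lost its call without KD replicate 1 or 4.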

How the data were processed

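Liver polyA RNA was sequenced from 24 mice. Reads were counted per gene by the authors, and the deposited values are whole-number counts on 55335 Ensembl genes. Per the submitters' processing notes Trimmomatic, STAR and GRCm38 were used, and the deposited table is named as stranded STAR read counts. How strand and molecular identifiers were handled is not given in the sources used here. The 4 summary entries that name no gene held 25.2% to 29.2% of the entries in the 8 libraries and were left out. Replicates are separate mice per the labels, and no pair of libraries agreed within sampling noise (smallest chi-square per gene 27.5).

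Counts were fitted with edgeR 4.0.16 in R 4.3.3 (TMM scaling, filterByExpr, quasi-likelihood, 24 libraries, 6 group means, 18 residual degrees of freedom, Benjamini-Hochberg adjustment at 0.05). The test was checked on simulated counts. No simulated liver was given extra transcripts of other tissues, so that check does not cover livers such as MCT replicate 3. CPM are TMM-normalised, and library sums use raw totals. Named genes were 10 in each direction with the smallest p, at least 1 CPM and no overlap, genes called by DESeq2, up to 4 members of each list, the cholesterol, medium-chain and panel genes, and the 5 smallest p in each other contrast; a selection is printed, and some are not reported here. Members and lists were chosen with earlier results of these data known. Alternatives were DESeq2 1.42.0, limma 3.58.1, RLE or library-size scaling, no filter, a replicate block, the 8 libraries alone, removal of pancreas genes and omission of libraries. Chosen after seeing the data were edgeR's older quasi-likelihood fit and the joint omission of MCT replicates 3 and 4, or of MCT replicate 1 with control replicates 3 and 4.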

Additional observations from a re-analysis of the deposited data

Results flagged for a closer look

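Among 184 groups of 4 livers examined, 18 held a highest or lowest liver whose gap to its neighbour, as a share of the group's range, exceeded Dixon's critical value at the 95% level; chance alone flags about 1 in 20 groups. In MCT livers the lone value was highest in replicate 1 for Crim1 (22.3 CPM), Stard4 (243), Neat1 (19.6), Xist (429) and Malat1 (536). It was highest in replicate 2 for Cxcl9 (80.2 CPM) and the T and NK cell marker sum (27.6). In replicate 3 it was highest for Scd1 (21507 CPM), Pklr (478) and the pancreas marker sum (19727), and lowest for Acadm (349.8). Replicate 4 was lowest for Mvd (6.38 CPM). In control livers, replicate 1 was highest for the neutrophil marker sum (25.9 CPM), replicate 2 highest for Art4 (2.87) and the muscle marker sum (27.7) and lowest for Mcm2 (1.94), and replicate 4 highest for Fgf21 (6.49) and Plin2 (286). Irs2 went in opposite directions in the genotypes without overlap in either; the difference of -2.53 on the log2 scale had an unadjusted p of 0.000308 in edgeR and did not pass adjustment.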

How the results depend on the processing

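For MCT against control diet in WT, no gene was called with RLE factors, library size alone, the 8 libraries alone, voom weights, pancreas genes removed, the legacy fit or the replicate block. DESeq2 called 14, no expression filter 1 (Mmp3), and joint omission of MCT replicates 3 and 4 called 2 (Cd1d2 and Rps3a3). Omitting single livers gave 0 to 1 calls. The 803 genes at an unadjusted p under 0.05 became 1238 without the filter, 1408 with voom weights, 533 without MCT replicates 3 and 4, and 503 (without MCT replicate 3) to 1507 (without MCT replicate 1) on single omissions. Replicate numbers did not pair the livers (correlations of -0.08 to 0.06), and the replicate block gave 1005 such genes and 0 calls. For the genotype difference 287 became 646 without the filter and 246 to 516 on single omissions, the highest without MCT replicate 1. Against KD, DESeq2 called 93, the replicate block 20, and single omissions 9 to 57, outside 1.5 times the 24 without KD replicates 2 or 3 or MCT replicates 1 or 3. Acaca and Elovl6 lost their calls under the block (adjusted p = 0.0609 and 0.0738 in edgeR) and most single omissions, and Pklr without KD replicate 1 or 4 (highest 0.0581).

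Of 75 single genes, 12 changed sign under some alternative, 40 of 1573 values. With library size alone, which moved the median of all genes to -0.10, Ebp was at -0.01, Tm7sf2 at -0.08, Acaca at -0.01 and Elovl6 at -0.11, and the list medians were -0.16 for medium-chain oxidation and -0.06 for glycolysis. With voom weights Tm7sf2 was at -0.10, Acsm1 at 0.01 and glycolysis at -0.08. Without control replicates 3 and 4, Idi1 was at 0.41, Ebp at -0.02, Acsm3 at 0.25 and the T and NK list at 0.72. With MCT replicate 3 out as well, Idi1 was at 0.58, Ebp at -0.09, Acadm at 0.10, Acsm3 at 0.33, Acaca at -0.16, the T and NK list at 0.73 and the cholesterol list at -0.30. With MCT replicate 1 out instead, Idi1 was at 0.01, Acsm3 at 0.13, Acaca at -0.02 and the T and NK list at 0.77. Without MCT replicates 3 and 4, Ebp was at -0.18, Tm7sf2 at -0.50, Acadm at 0.02, Acsm3 at 0.12, Crat at -0.24, Plin2 at -0.17, G0s2 at -0.28, Cyp7a1 at 0.07, sterol efflux at -0.10 and glycolysis at -0.15. Omitting single livers gave ranges of -1.17 to 0.03 for Idi1, -0.02 to 0.19 for Ebp, -0.32 to 0.28 for Tm7sf2, -0.16 to 0.03 for Acadm, -0.08 to 0.06 for Acsm1, -0.19 to 0.13 for Acsm3, -0.13 to 0.31 for Acaca and -0.21 to 0.48 for Elovl6. List medians ranged from -0.17 to 0.02 for bile acids, -0.09 to 0.13 for glycolysis and 0.11 to 0.64 for T and NK cells. Differences of summed CPM ranged from -6.97 to 6566 for pancreas (the lowest without MCT replicate 3), -123 to 13.3 for Kupffer cells, -0.787 to 5.09 for neutrophils, -16.8 to 93.8 for stellate cells, -41.1 to 51.8 for erythroid genes and -64.2 to 50.1 for Malat1. The causes were not tested.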

Other observations

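Further groups of genes lay close to 0 on MCT. The tricarboxylic acid cycle list had a median of -0.06, with log2 fold changes from -0.21 to 0.10 over 19 genes, and amino acid breakdown and urea cycle genes had a median of -0.02 over 39. Cytochromes P450 of foreign compound metabolism had a median of 0.00 over 29 genes. Bile acid genes had a median of -0.10, and Cyp7a1, the rate-limiting enzyme, was at -0.30 (95% interval -1.25 to 0.66). Clock genes had a median of 0.02 over 21, with Hlf, a clock output factor, at 0.34 ± 0.16 and higher in every MCT liver. Among targets of the oxidative stress factor NRF2, 14 of 20 were below 0, with Srxn1 at -0.61 ± 0.24 and Txnrd1 at -0.30 ± 0.11. Cytosolic ribosomal protein genes lay above 0 in 33 of 40, with a median of 0.12. The sorting receptor Sort1, which acts on lipoprotein export, stood at 14.6, 10.2, 15.5 and 12.8 CPM on MCT and at 27.2, 22.5, 19.6 and 13.5 CPM on the control diet (-0.64 ± 0.22; edgeR adjusted p = 0.729).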
